A study of Mus musculus with 8 samples.

Results

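The genes of DNA double-strand break and crosslink repair are described here in mouse 4T1 tumors, as 39 of the 54532 genes in a count table of bulk RNA sequencing. They form a list of gene symbols that falls by known function into 6 roles: 7 sense breaks or relay the checkpoint signal, 9 act in homologous recombination, 8 in the Fanconi anemia pathway, 6 are helicases or nucleases, 5 join broken ends and 4 repair single-strand breaks. All 39 passed the filter on low counts, which kept 18511 genes for testing. The tumors were grown under the skin of female BALB/cJ mice, 6 weeks old, from 4T1 cells, a mouse line used as a model of triple-negative breast cancer (4T1-FLuc, which carries a luciferase reporter, in the methods of the study). A group of 4 mice received saline (named PBS control in another field of the labels) and a group of 4 received mAb-DXd/IMQ at 16 mg/kg, both through the tail vein every 4 days for 5 courses, with the 8 tumors from 8 mice. mAb-DXd/IMQ is a humanized antibody against CD276, a surface protein of the B7 family, that carries the topoisomerase I inhibitor DXd together with the imidazoquinoline IMQ, an agonist of Toll-like receptors. The comparison asks how the transcriptome of the tumors differs between the groups. Total counts ran from 34591912 in mAb-DXd/IMQ tumor 4 to 69582375 in saline tumor 4, and each repair gene had between 96 and 7073 counts in a tumor.

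A double-strand break is first bound by a complex that trims its ends and activates checkpoint kinases, and is then closed either by end joining or, in cells that have copied their DNA, by homologous recombination with the sister copy as a template. The Fanconi anemia proteins recognise crosslinks between the strands, mark them with ubiquitin and hand the cut DNA to homologous recombination. DXd holds topoisomerase I on nicked DNA, and replication forks that meet such nicks can turn them into double-strand breaks, so repair genes are of interest in tumors exposed to it. Many of the recombination genes are also known to be expressed most in dividing cells.

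None of the 39 repair genes passed the thresholds in either direction (adjusted p below 0.05 and a log2 fold change beyond 0.58 in edgeR's quasi-likelihood test over all tested genes), where 0.546% of all tested genes passed as higher and 0.519% as lower in mAb-DXd/IMQ tumors. Those shares rest on 101 higher and 96 lower genes, and the number in both directions was 111 without saline tumor 2, 10 without saline tumor 3, 11 without saline tumor 4, 76 without mAb-DXd/IMQ tumor 2, 88 without mAb-DXd/IMQ tumor 3, 12 without mAb-DXd/IMQ tumor 4 and 14 with a block for the tumor number. DESeq2 put 5 of the 39 (12.8%) at an adjusted p below 0.05 in either direction, against 7.5% of all genes it tested. It put 2 of them, Exo1 and Chek1, past the fold limit as higher, against 2.37% of all genes it tested, while none passed as lower against 1.89%. limma voom passed none, against 0.465% of all tested genes as higher and 0.475% as lower. Scaling by upper-quartile factors put 33.5% of all called genes on the lower side, and library size alone 39.2%, where TMM put 48.7%. At an unadjusted p below 0.05, edgeR gave 7 repair genes with the higher level in mAb-DXd/IMQ tumors (Exo1, Chek1, Chek2, Fanca, Bard1, Brip1 and Rad50), 17.9% of the list against 9.13% of all tested genes, and 2 with the lower level (Wrn and Lig3), 5.13% of the list against 9.79%. The first of these counts turned on single tumors: it was 3 without saline tumor 4 (6.79% of all tested genes in that fit), 3 without mAb-DXd/IMQ tumor 3 (8.67%), 4 without saline tumor 2 (7.52%) and 11 without saline tumor 1 (8.89%). The groups did not overlap for 7 genes with the higher values in every mAb-DXd/IMQ tumor (Rad50, Chek1, Chek2, Rad51b, Fancc, Exo1 and Xrcc1), where 5.97% of all tested genes did so, and for 2 with the lower values (Wrn and Lig3), where 7.1% did so.

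The fold changes of the list leaned to positive values. The log2 fold change, which is given throughout as mAb-DXd/IMQ minus saline, was above 0 for 32 of the 39 repair genes, or 82.1%, against 52.6% of all tested genes. Its median was 0.20 over the repair genes and 0.022 over all tested genes. Single genes ranged from −0.46 for Wrn to 0.78 for Exo1, with standard errors between 0.093 and 0.25. The positive side held all 9 homologous recombination genes (median 0.28, with Rad51d at 0.011 and below 0 after the length correction, which leaves 8) and all 8 Fanconi genes (median 0.28), 6 of the 7 sensing and checkpoint genes (median 0.22), 3 of the 5 end joining genes (median 0.14), 3 of the 6 helicases and nucleases (median 0.10) and 3 of the 4 single-strand break genes (median 0.066). Atm among the sensing genes and Parp1 among the single-strand break genes are counted as positive at 0.022 and 0.013, and each was below 0 without some single tumors (−0.078 to 0.12 and −0.055 to 0.12). With the length correction described below, the medians of the roles in the same order were 0.35, 0.33, 0.22, 0.088, 0.053 and 0.040. These medians describe the groups of genes and were not tested. Leaving out 1 tumor moved the log2 fold change of 21 of the 39 genes by more than 1.5 times.

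**Figure D1:**
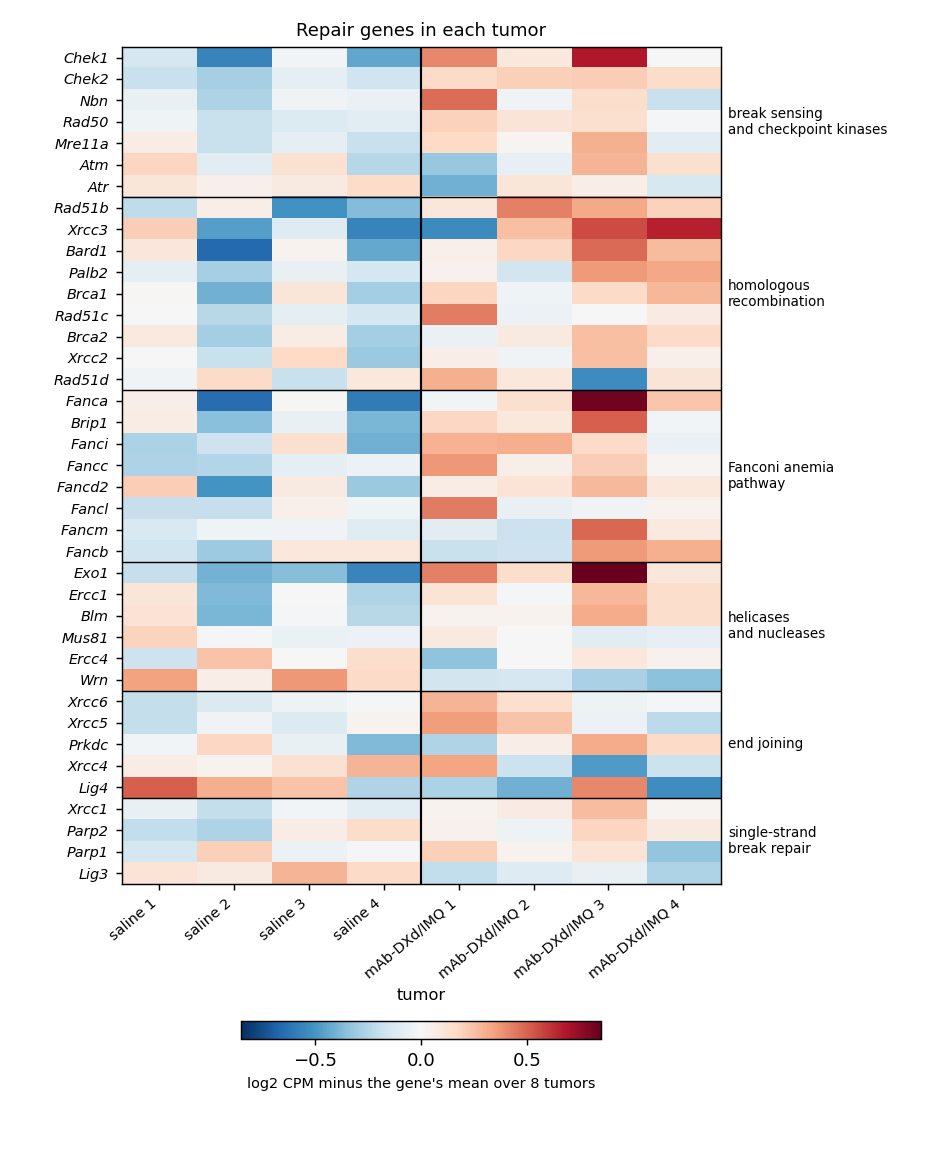
Colors give, for each of the 39 repair genes (rows, grouped by role) in each of the 8 tumors (columns), the log2 of the CPM (counts scaled to TMM-adjusted library size) minus the gene's mean over all tumors. Saline tumor 2 is blue in many rows, holding the lowest value of the 8 tumors for 15 genes, and mAb-DXd/IMQ tumor 3 is red in many, holding the highest value for 19.

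Levels are given below as CPM, counts scaled to the library size of the tumor times its TMM factor, always in the order of tumors 1 to 4 of a group. The tumors of a group were not alike. Over the 39 genes, the median deviation from the gene's mean over all tumors was −0.025, −0.20, −0.025 and −0.15 on the log2 scale across the saline group, and 0.073, 0.030, 0.25 and 0.043 across the mAb-DXd/IMQ group. Saline tumors 1 and 3 lay close to the mAb-DXd/IMQ tumors, saline tumors 2 and 4 lay below them, and mAb-DXd/IMQ tumor 3 stood above all others. Saline tumor 2 held the lowest value of the 8 tumors for 15 of the 39 genes and saline tumor 4 for 8, while mAb-DXd/IMQ tumor 3 held the highest value for 19 and mAb-DXd/IMQ tumor 1 for 10. In log2 units, the standard deviation within a group had a median of 0.15 over the repair genes for saline and of 0.20 for mAb-DXd/IMQ.

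Compared per length, as CPM per kilobase of the deposited gene length and averaged over all 8 tumors, the repair genes spanned from 0.668 for Rad51b to 40.02 for Ercc1, with a median of 3.66 against 3.92 for all tested genes. Ercc1, Parp1 (18.4), Xrcc5 (15.5), Xrcc3 (10.2) and Parp2 (10.1) had the highest levels on this scale. Next above Rad51b were Fancm (1.19) and Fanci (1.199).

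Promoters are shown for genes with an unadjusted p below 0.05 and the higher level in mAb-DXd/IMQ tumors, where the window holds bases ahead of the deposited gene start. RefSeq sequences (GRCm38.p6) of the 250 bases before the start matched 31 of the 39 genes, and Rad50, Nbn, Fancd2, Rad51d, Xrcc2, Wrn, Exo1 and Prkdc had no entry. The motifs were CCAAT (the letters bound by NF-Y), TTTGAA (known from promoters of cell cycle genes), and TTTGGCGC and TTTCCCGC (forms of the E2F site), each read on both strands, with no motif contained in another. Capitals mark the matches. Chek1 met the limits on p and direction and had a window, but that window held none of these motifs and is not printed. Windows were trimmed at the deposited gene start for Chek2 (chr5:110839733-110839978, plus strand) and Bard1 (chr1:71103147-71103222, minus strand), and are whole for Fanca (chr8:123318577-123318826, minus strand) and Brip1 (chr11:86201194-86201443, minus strand).
Chek2: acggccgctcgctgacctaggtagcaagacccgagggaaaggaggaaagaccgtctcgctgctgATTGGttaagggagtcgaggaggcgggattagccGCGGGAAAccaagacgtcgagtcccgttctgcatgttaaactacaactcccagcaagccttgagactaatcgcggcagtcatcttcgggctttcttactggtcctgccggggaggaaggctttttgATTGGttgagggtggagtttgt
Bard1: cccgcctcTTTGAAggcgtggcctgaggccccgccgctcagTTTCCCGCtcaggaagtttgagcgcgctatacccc
Fanca: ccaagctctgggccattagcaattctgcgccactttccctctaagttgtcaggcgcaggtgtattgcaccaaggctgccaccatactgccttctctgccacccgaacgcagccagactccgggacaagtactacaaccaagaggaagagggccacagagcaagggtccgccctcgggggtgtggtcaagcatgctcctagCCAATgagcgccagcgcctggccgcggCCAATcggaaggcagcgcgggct
Brip1: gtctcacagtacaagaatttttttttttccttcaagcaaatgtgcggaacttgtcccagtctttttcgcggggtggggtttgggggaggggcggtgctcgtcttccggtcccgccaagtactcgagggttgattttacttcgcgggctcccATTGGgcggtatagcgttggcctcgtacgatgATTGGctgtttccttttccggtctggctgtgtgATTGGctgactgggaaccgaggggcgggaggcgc

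The 31 genes had 34 windows, as Rad51b, Rad51c and Lig4 had a pair each. CCAAT was found in 16 of the 34 (47.1%) and in 33.8% of all 32851 windows of the same length. TTTCCCGC was found in 4 (11.8%), those of Chek2, Bard1, Brca2 and Xrcc6, and in 0.895% of all windows. TTTGAA was found in 1 (2.94%), that of Bard1, against 16% of all windows, and TTTGGCGC in 0 against 0.417%. A match is a string of letters and not a bound site.

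The break sensing and checkpoint genes come first in the order of repair. Chek1 encodes the effector kinase that Atr activates when replication stalls, and Chek2 its counterpart downstream of Atm. Chek1 (chr9:36708482-36727065, GRCm38) stood at 31.4, 23.5, 34.1 and 25.6 CPM across the saline group and at 45.9, 36.9, 55.6 and 34.7 CPM across the mAb-DXd/IMQ group. The lowest mAb-DXd/IMQ tumor lay just above the highest saline tumor, and mAb-DXd/IMQ tumor 3 was well above the rest. Its log2 fold change was 0.59 (SE 0.17, 95% interval 0.21 to 0.97) with an edgeR adjusted p of 0.104. In the same order of tumors, Chek2 (chr5:110839979-110874145), whose promoter is printed above, stood at 12.4, 11.6, 13.3 and 12.6 CPM and at 15.8, 16.2, 16.4 and 15.7 CPM. Each group was tight for this gene, and every mAb-DXd/IMQ tumor was above every saline tumor, with a log2 fold change of 0.36 (SE 0.12) and an edgeR adjusted p of 0.152. DESeq2 gave adjusted p values of 0.0342 for Chek1 and 0.0383 for Chek2, the second under the fold limit. Over the alternatives run, the adjusted p of Chek1 lay between 0.0342 and 0.261 and that of Chek2 between 0.0383 and 0.451.

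The kinases upstream gave no such separation. Atm, which responds to broken ends, had 45.9, 37.9, 44.3 and 34.2 CPM across the saline group and 32.4, 38.6, 49.4 and 44.4 CPM across the mAb-DXd/IMQ group, with full overlap (log2 fold change 0.022, 95% interval −0.30 to 0.35). Atr, which responds to single-stranded DNA at stalled forks, had 38.1, 36.5, 37.3 and 39.5 CPM and 26.8, 38.1, 36.8 and 32.3 CPM in the same order. The saline tumors lay close together, and mAb-DXd/IMQ tumors 1 and 4 lay below them while tumors 2 and 3 were within their range (log2 fold change −0.18, SE 0.12, edgeR adjusted p 0.474). The complex that binds the ends, formed by the nuclease Mre11a, the tethering ATPase Rad50 and the adaptor Nbn, had log2 fold changes of 0.20, 0.22 and 0.22. Without single tumors Mre11a ran from 0.13 to 0.27, Nbn from 0.080 to 0.32 and Atr from −0.25 to −0.084. Rad50 alone of these did not overlap between the groups (edgeR adjusted p 0.23999), with 47.3 ± 2.02 CPM for saline against 54.95 ± 3.22 CPM for mAb-DXd/IMQ (mean ± SD, n = 4 each).

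**Figure D2:**
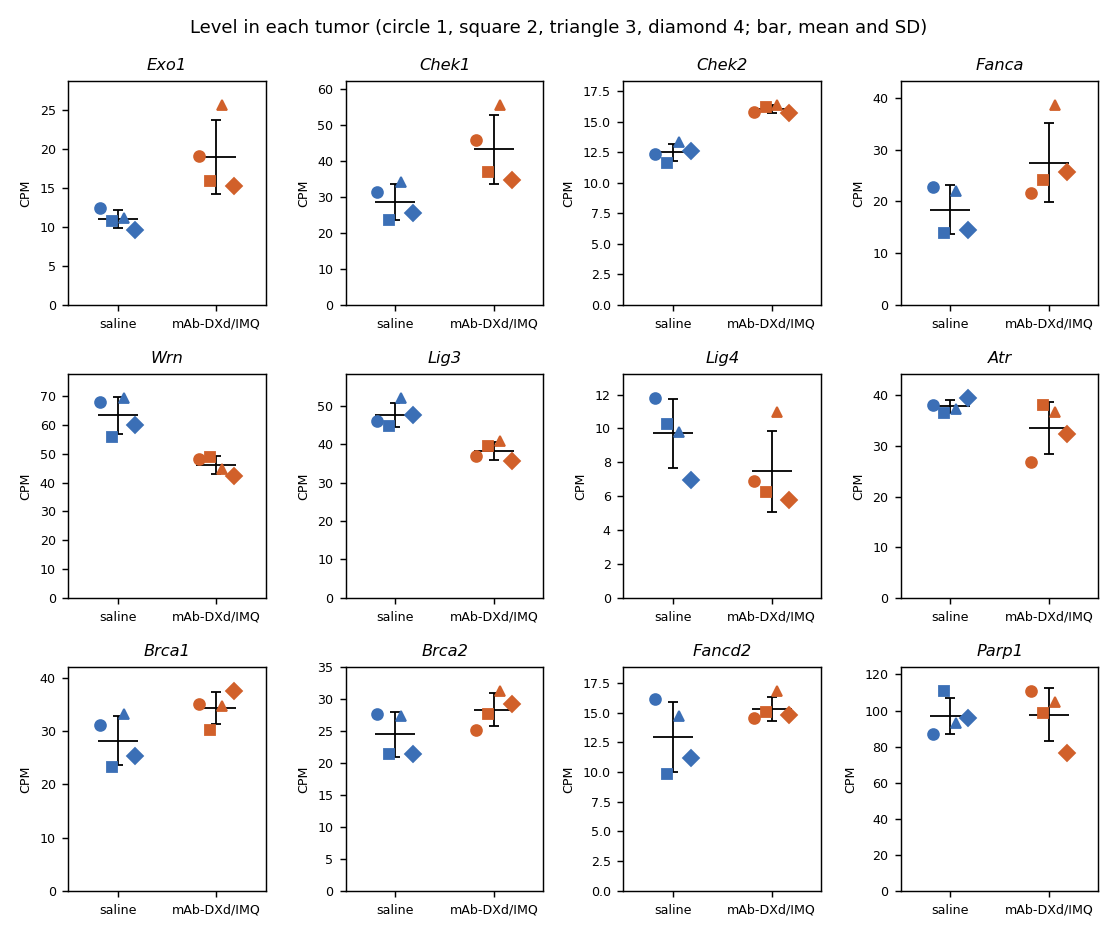
Points give the level in CPM of 12 repair genes in each of the 8 tumors, with saline in blue and mAb-DXd/IMQ in orange, and the black bar gives the mean and SD of the 4 tumors. The groups do not overlap for Exo1, Chek1, Chek2, Wrn and Lig3 and overlap for the other genes drawn.

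Homologous recombination begins with Brca1 and its partner Bard1, which form a ubiquitin ligase that favors trimming of the ends. Palb2 links Brca1 to Brca2, and Brca2 acts on the single-stranded DNA that trimming leaves. Brca1 (chr11:101488764-101551955) stood at 31.1, 23.3, 33.1 and 25.3 CPM across the saline group and at 35.005, 30.1, 34.6 and 37.5 CPM across the mAb-DXd/IMQ group. Saline tumors 2 and 4 were the lowest, whereas saline tumors 1 and 3 were above mAb-DXd/IMQ tumor 2. The log2 fold change was 0.28 (SE 0.14, 95% interval −0.014 to 0.58, edgeR adjusted p 0.287). For Brca2 (chr5:150522630-150570329) the levels were 27.7, 21.5, 27.3 and 21.4 CPM and 25.2, 27.6, 31.3 and 29.3 CPM in the same order, again with saline tumors 2 and 4 lowest and the other tumors mixed (log2 fold change 0.21, 95% interval −0.078 to 0.50, edgeR adjusted p 0.417). Bard1, whose promoter is printed above, had 26.6 ± 6.504 CPM for saline against 36.5 ± 4.703 CPM for mAb-DXd/IMQ (mean ± SD, n = 4 each), a log2 fold change of 0.46 (SE 0.17) and an edgeR adjusted p of 0.192, with saline tumor 1 above mAb-DXd/IMQ tumor 1. Palb2 had a log2 fold change of 0.30.

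Rad51b, Rad51c, Rad51d, Xrcc2 and Xrcc3 form complexes that assist homologous recombination. Among them the log2 fold change was 0.51 for Rad51b (the groups did not overlap, but it had the lowest level per length of the list), 0.50 for Xrcc3, 0.24 for Rad51c, 0.15 for Xrcc2 and 0.011 for Rad51d, with edgeR adjusted p values from 0.266 to 0.983. Xrcc3 varied most of the 39 genes within the mAb-DXd/IMQ group, at 18.4, 31.7, 38.9 and 41.9 CPM across the mAb-DXd/IMQ group and 30.8, 19.2, 24.7 and 18.02 CPM across the saline group. The lowest mAb-DXd/IMQ tumor, number 1, was near the lowest saline tumor. Without single tumors Rad51c ran from 0.12 to 0.29, Xrcc2 from 0.087 to 0.24 and Rad51d from −0.099 to 0.16.

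In the Fanconi anemia pathway, Fanca belongs to the core complex that ubiquitinates Fancd2 and Fanci at a crosslink. Fanca (chr8:123268300-123318576) had 22.8, 13.99, 22.1 and 14.5 CPM across the saline group and 21.5, 24.1, 38.6 and 25.7 CPM across the mAb-DXd/IMQ group. Saline tumors 2 and 4 were the lowest and mAb-DXd/IMQ tumor 3 the highest, while saline tumors 1 and 3 were level with mAb-DXd/IMQ tumor 1. Its log2 fold change was 0.58 (SE 0.22, 95% interval 0.098 to 1.07) with an edgeR adjusted p of 0.188, and leaving out single tumors moved it between 0.37 (without mAb-DXd/IMQ tumor 3) and 0.70 (without saline tumor 1). Fanca shares 10.5% of its length with exons of Zfp276 on the opposite strand, and without a stated strand setting reads from that stretch cannot be told apart. Zfp276 itself had a log2 fold change of −0.047. Fancd2 (chr6:113531682-113597017) had 16.1, 9.79, 14.7 and 11.2 CPM across the saline group and 14.5, 15.1, 16.8 and 14.8 CPM across the mAb-DXd/IMQ group. The mAb-DXd/IMQ tumors lay close together at the level of saline tumors 1 and 3, and saline tumors 2 and 4 were lower (log2 fold change 0.24, 95% interval −0.15 to 0.63, 0.13 to 0.36 without single tumors, edgeR adjusted p 0.496).

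Brip1, a helicase that binds Brca1 and is also a Fanconi gene, had 16.1 ± 2.47 CPM for saline against 20.9 ± 3.44 CPM for mAb-DXd/IMQ (mean ± SD, n = 4 each), a log2 fold change of 0.37 (SE 0.16) and an edgeR adjusted p of 0.238, with saline tumor 1 above mAb-DXd/IMQ tumor 4. The groups did not overlap for Fancc, a further member of the core complex, at 14.1, 11.3, 12.6 and 11.05 CPM across the mAb-DXd/IMQ group against 9.08, 9.16, 10.3 and 10.5 CPM across the saline group (log2 fold change 0.32, edgeR adjusted p 0.272). The remaining genes were Fanci at 0.35, the ligase subunit Fancl at 0.20, the translocase Fancm at 0.17 and the core subunit Fancb at 0.16 as log2 fold changes. Leaving out single tumors moved Fancl between 0.069 and 0.25, Fancm between 0.015 and 0.25 and Fancb between 0.059 and 0.24. Fanci shares 15.95% of its length with Polg on the opposite strand, and the counts of Polg were 849.3% of those of Fanci. Fancl shares 13.7% with Vrk2, and Fancc 2.21% with the more abundant 2010111I01Rik, so these 3 are uncertain in the same way as Fanca. The same holds in other roles for Xrcc6, which shares 7.69% of its length with Desi1, for Ercc1 with 3.41% in Cd3eap (log2 fold change 0.36, groups not overlapping), for Xrcc4 with 2.66% in the more abundant Tmem167 and for Mre11a with 2.6% in Ankrd49.

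The helicases and nucleases held the extremes of the list in both directions. Exo1 is an exonuclease that extends the trimming of broken ends and also acts in mismatch repair. Exo1 (chr1:175880581-175913489) stood at 12.5, 10.8, 11.1 and 9.67 CPM across the saline group and at 19.1, 15.8, 25.6 and 15.3 CPM across the mAb-DXd/IMQ group. Every mAb-DXd/IMQ tumor was above every saline tumor, and tumor 3 was again the highest. The log2 fold change of 0.78 (SE 0.18, 95% interval 0.38 to 1.19) had an edgeR adjusted p of 0.0597, just short of the threshold. It passed in DESeq2 (adjusted p 0.00321) and in edgeR with no filter on low counts (adjusted p 0.0445), and its adjusted p reached 0.18 at most over the alternatives run.

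Wrn is a helicase of the RecQ family that also has exonuclease activity. Wrn (chr8:33234384-33385527) had 68.04, 55.9, 69.3 and 60.1 CPM across the saline group and 48.2, 48.9, 44.6 and 42.3 CPM across the mAb-DXd/IMQ group. Here every mAb-DXd/IMQ tumor was below every saline tumor, with a log2 fold change of −0.46 (SE 0.11, 95% interval −0.70 to −0.23) and an edgeR adjusted p of 0.0591. DESeq2 gave it an adjusted p of 0.00595, but its fold change did not reach the fold limit with any alternative run, where it lay between −0.52 and −0.38 and its adjusted p between 0.00595 and 0.226. Blm, the RecQ helicase mutated in Bloom syndrome, had a log2 fold change of 0.25 with overlapping groups.

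Mus81 is the catalytic subunit of a nuclease that cuts branched DNA, and Ercc1 with Ercc4 forms the nuclease that unhooks crosslinks. Mus81 had 22.1, 19.2, 18.7 and 18.8 CPM across the saline group and 20.4, 19.4, 18.2 and 18.5 CPM across the mAb-DXd/IMQ group, with overlapping groups and a log2 fold change of −0.043 (95% interval −0.30 to 0.22). For Ercc1 the levels were 133, 95.1, 123 and 103 CPM and 133, 122, 149.8 and 136 CPM in the same order. Saline tumors 2 and 4 were the lowest, and saline tumors 1 and 3 were within the range of the mAb-DXd/IMQ tumors (log2 fold change 0.25, SE 0.13, edgeR adjusted p 0.308). Its partner Ercc4 had a log2 fold change of −0.11 (95% interval −0.42 to 0.21). Without single tumors Mus81 ran from −0.077 to 0.015 and Ercc4 from −0.18 to −0.021.

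End joining needs the Ku subunits Xrcc5 and Xrcc6, which cap the ends, the kinase Prkdc, and the ligase Lig4 with its scaffold Xrcc4. Prkdc had 19.02, 21.9, 18.6 and 14.9 CPM across the saline group and 16.2, 20.2, 24.1 and 21.7 CPM across the mAb-DXd/IMQ group, with overlapping groups (log2 fold change 0.14, 95% interval −0.21 to 0.50). Lig4 (chr8:9969049-9977686) had 11.8, 10.3, 9.799 and 6.96 CPM and 6.89, 6.27, 10.99 and 5.76 CPM in the same order. mAb-DXd/IMQ tumors 1, 2 and 4 lay below every saline tumor, whereas tumor 3 was second only to saline tumor 1. The log2 fold change of Lig4 was −0.37 (SE 0.24, 95% interval −0.91 to 0.16, edgeR adjusted p 0.439), and leaving out single tumors moved it between −0.62 and −0.26, the lower end without mAb-DXd/IMQ tumor 3. Xrcc4 had a log2 fold change of −0.23, Xrcc5 of 0.18 and Xrcc6 of 0.19. Without single tumors Prkdc ran from 0.056 to 0.24, Xrcc4 from −0.41 to −0.12, Xrcc5 from 0.079 to 0.28 and Xrcc6 from 0.12 to 0.23. No gene of this group had an unadjusted p below 0.05.

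Single-strand break repair is directly engaged by trapped topoisomerase I: Parp1 and Parp2 detect the nick, Xrcc1 gathers the repair proteins and Lig3 seals the strand. Parp1 (chr1:180568924-180601254) had 87.2, 111, 93.2 and 96.1 CPM across the saline group and 111, 98.7, 105 and 76.7 CPM across the mAb-DXd/IMQ group. The groups overlapped, and the 95% interval of the log2 fold change (0.013) ran from −0.27 to 0.30. Parp2 had a log2 fold change of 0.12 (0.052 to 0.20 without single tumors). Xrcc1 had 38.99, 35.4, 40.1 and 38.3 CPM across the saline group and 41.7, 42.8, 48.9 and 41.5 CPM across the mAb-DXd/IMQ group. Its groups did not overlap, by a narrow margin (log2 fold change 0.20, SE 0.10, edgeR adjusted p 0.319). Lig3 (chr11:82781108-82804274) had 46.1, 44.8, 52.02 and 47.6 CPM across the saline group and 36.9, 39.6, 40.9 and 35.6 CPM across the mAb-DXd/IMQ group. All 4 mAb-DXd/IMQ tumors were below all 4 saline tumors, with a log2 fold change of −0.32 (SE 0.099, 95% interval −0.53 to −0.10), an edgeR adjusted p of 0.1201 and a DESeq2 adjusted p of 0.0499 under the fold limit (0.0499 to 0.333 over the alternatives run). Lig3 shares 25.07% of its length with Rffl on the opposite strand, whose log2 fold change was −0.13, and reads from that stretch cannot be told apart.

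**Figure D3:**
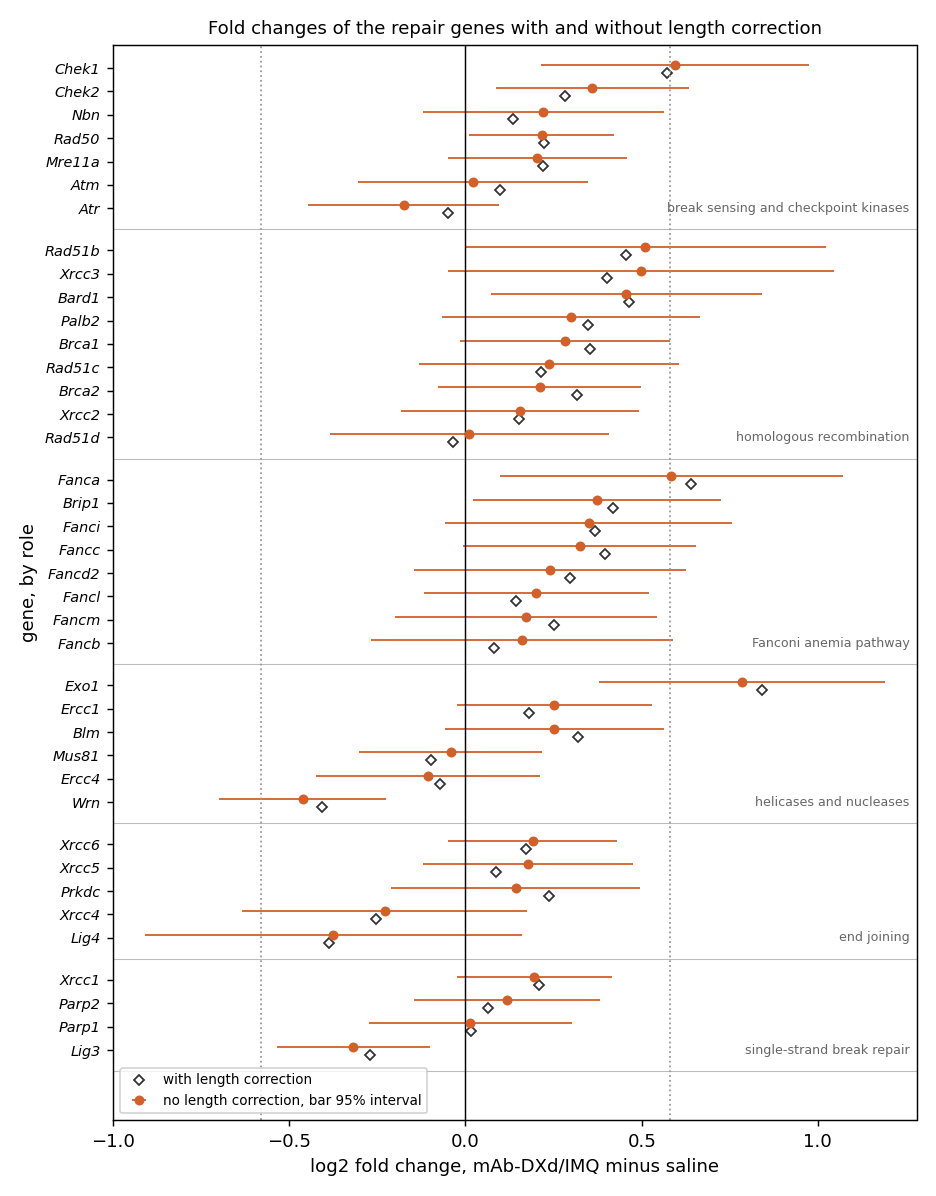
Filled points give the log2 fold change (mAb-DXd/IMQ minus saline, 4 tumors each) of each repair gene with its 95% interval, and open diamonds give the value after the length correction. Dotted lines mark the fold limit of 0.58 in each direction. The intervals of Exo1, Chek1, Chek2, Fanca, Bard1, Brip1, Rad50, Wrn and Lig3 do not reach 0.

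Gene length had to be considered because fold changes in these tumors depended on it. Over all tested genes, Spearman's correlation between log2 fold change and gene length was −0.21, across genes that are not independent replicates. The median log2 fold change was 0.14 for genes under 2 kilobases, 0.067 from 2 to 4, −0.014 from 4 to 6 and −0.093 for those of 6 kilobases and over. Per tumor, the slope of log2 CPM on the log2 of length (after taking off each gene's mean) was 0.011, 0.033, 0.021 and 0.029 across the saline group and −0.010, −0.022, 0.013 and −0.074 across the mAb-DXd/IMQ group. The mAb-DXd/IMQ tumors were below every saline tumor except tumor 3, which lay above saline tumor 1. The difference in slope was −0.047 (exact permutation test, two-sided, p = 0.0571, n = 4 each, where 0.0286 is the smallest p possible). The cause of the slope was not tested.

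Repair genes are long, with a median of 5659 bases against 3516 for all tested genes, from 2533 for Nbn to 23629 for Atr, and 32 of the 39 are longer than the median tested gene. Spearman's correlation between their log2 fold changes and length was −0.011 over the 39 genes. It ran from −0.18 without mAb-DXd/IMQ tumor 3 to 0.15 without mAb-DXd/IMQ tumor 1, and was 0.25 with the length correction described below. In the class of 6 kilobases and over, 12 of the 16 repair genes had a log2 fold change above 0 (median 0.23), where 37.6% of all tested genes did. From 4 to 6 kilobases, 10 of 12 were above 0 (median 0.20) against 47.9%, and from 2 to 4 kilobases 10 of 11 (median 0.20) against 58%. None was shorter than 2 kilobases.

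**Figure D4:**
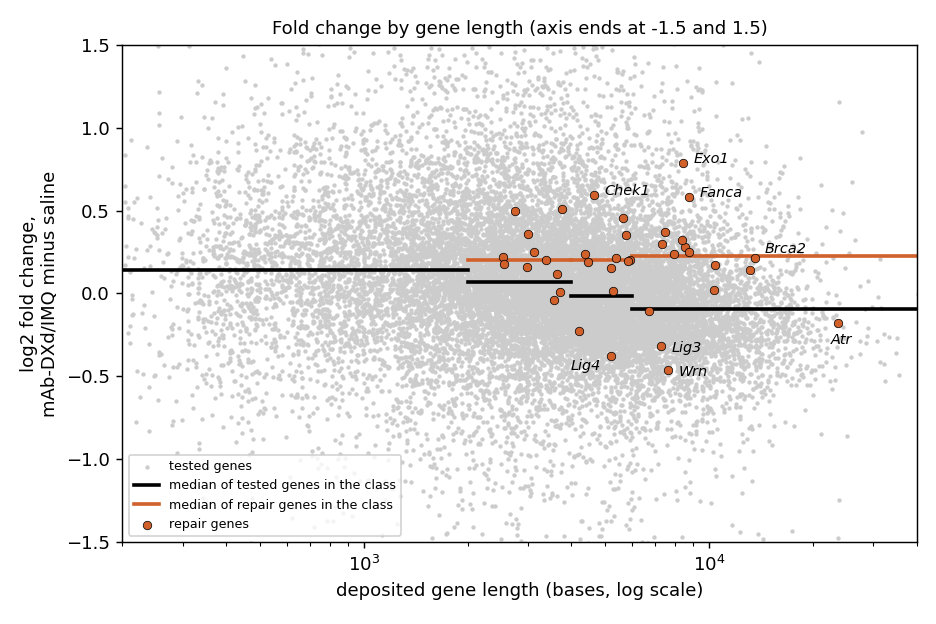
Each gray point is a tested gene and each orange point a repair gene, placed by its deposited gene length (log scale) and its log2 fold change, mAb-DXd/IMQ minus saline. The black lines (median of all tested genes per length class) step down from 0.14 to −0.093, whereas the orange lines (median of the repair genes) lie at 0.20, 0.20 and 0.23.

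With an offset for length in each tumor, none of the 39 repair genes passed the thresholds in edgeR, where 0.34% of all tested genes passed as higher and 0.319% as lower. At an unadjusted p below 0.05 there were 11 repair genes with the higher level in mAb-DXd/IMQ tumors (28.2% of the list against 7.4% of all tested genes) and 2 with the lower level (5.13% against 9.55%). Brca1, Brca2, Fancc and Blm came in beside the 7 found without the correction. The log2 fold change was above 0 for 31 of the 39 (79.5%) against 48.5% of all tested genes, with a median of 0.21 against −0.012. The correction raised the values of long genes: Atr went from −0.18 to −0.049, Brca2 from 0.21 to 0.32, Prkdc from 0.14 to 0.24 and Atm from 0.022 to 0.098. Short genes moved the other way, such as Xrcc5 from 0.18 to 0.088 and Nbn from 0.22 to 0.14. Exo1 stood at 0.84 (edgeR adjusted p 0.0639), Chek1 at 0.57, Fanca at 0.64, Wrn at −0.41 and Lig3 at −0.27 with the correction.

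The list of other repair genes held 65 that matched the table, all tested. None passed the thresholds in edgeR. At an unadjusted p below 0.05, 15 had the higher level in mAb-DXd/IMQ tumors and 0 the lower, where 9.13% and 9.79% of all tested genes did. With the length correction these counts were 13 and 2 (Paxx and Rad9a), where 7.4% and 9.55% of all tested genes did. DESeq2 passed 2 as higher, where it passed 2.37% of all genes it tested, and limma voom passed none. Their median log2 fold change was 0.087, with 43 of the 65 above 0, where 52.6% of all tested genes were. The median was 0.23 for the 21 of homologous recombination, 0.17 for the 12 of the Fanconi pathway, 0.040 for the 15 of sensing and checkpoint, 0.021 for the 7 of end joining and −0.0097 for the 10 of single-strand break repair. With the length correction these medians were 0.22, 0.10, 0.042, −0.021 and −0.055 in the same order, so that of end joining turned negative. Rad51ap1, which acts in homologous recombination, had 13.5, 13.3, 15.03 and 13.7 CPM across the saline group and 21.1, 19.2, 20.4 and 20.1 CPM across the mAb-DXd/IMQ group. All mAb-DXd/IMQ tumors were above all saline tumors (log2 fold change 0.54, SE 0.12, edgeR adjusted p 0.0519). Eme1, the partner of Mus81, had 9.75, 5.84, 10.1 and 7.48 CPM and 14.3, 12.9, 16.3 and 12.7 CPM in the same order, also without overlap. Its log2 fold change was 0.76 (SE 0.20) with an edgeR adjusted p of 0.0757. It passed in DESeq2 (adjusted p 0.00665), and its adjusted p reached 0.217 at most over the alternatives run. Mus81 itself showed no such pattern.

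Tdp2 and Tdp1, which clear trapped topoisomerases from DNA, were in this list. Tdp2, which acts on topoisomerase II adducts, had 36.2, 30.9, 34.1 and 34.9 CPM across the saline group and 43.4, 40.4, 45.3 and 47.5 CPM across the mAb-DXd/IMQ group, with no overlap (log2 fold change 0.37, edgeR adjusted p 0.0836). Its adjusted p lay between 0.0258 (in DESeq2, under the fold limit) and 0.278 over the alternatives run. Tdp1, which acts on topoisomerase I adducts, had 17.2, 20.5, 20.9 and 19.3 CPM and 29.4, 24.4, 25.7 and 19.7 CPM in the same order, with mAb-DXd/IMQ tumor 4 inside the saline range (log2 fold change 0.35, edgeR adjusted p 0.214). Top1, the gene of the enzyme that DXd inhibits, had 87.3, 95.5, 94.7 and 99.9 CPM and 88.04, 82.8, 89.9 and 68.3 CPM, overlapping (log2 fold change −0.20, 95% interval −0.44 to 0.045, −0.24 to −0.11 without single tumors). On the negative side the smallest p values belonged to Brcc3, a deubiquitinase of the Brca1-A complex, Paxx, an end joining factor, and Rad9a, of the checkpoint clamp. Brcc3 had 41.8, 46.7, 49.7 and 51.96 CPM across the saline group and 48.7, 43.3, 31.7 and 38.9 CPM across the mAb-DXd/IMQ group, Paxx 11.8, 10.5, 11.7 and 11.3 CPM and 9.34, 11.2, 8.63 and 9.28 CPM, and Rad9a 45.3, 40.8, 44.2 and 37.6 CPM and 30.4, 35.8, 41.9 and 39.2 CPM. The groups overlapped for all 3, and their log2 fold changes were −0.23, −0.24 and −0.19, with edgeR adjusted p values from 0.40999 to 0.436. Without single tumors Brcc3 ran from −0.33 to −0.12 and Rad9a from −0.26 to −0.11.

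**Figure D5:**
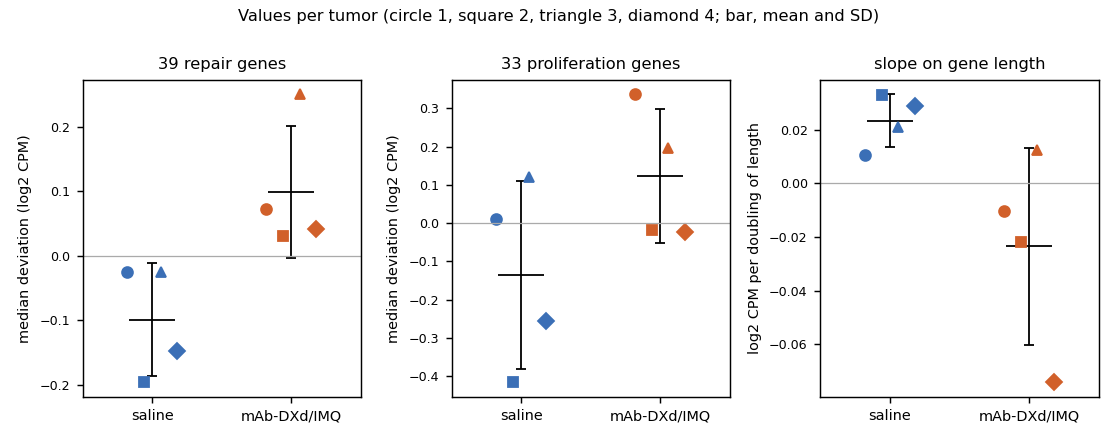
From left to right, the panels give for each of the 8 tumors the median deviation of the 39 repair genes, the same for 33 proliferation genes (both in log2 CPM from the gene's mean over the tumors), and the slope of log2 CPM on the log2 of gene length. The bar is the mean and SD of 4 tumors. Saline tumors 2 and 4 are the lowest in both gene lists.

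Genes of proliferation were read in the same tumors, since many repair genes are also cell cycle genes. Of 33 listed genes, none passed the thresholds in edgeR or limma voom and 2 passed in DESeq2 as higher (2.37% of all genes it tested), 10 had an unadjusted p below 0.05 with the higher level in mAb-DXd/IMQ tumors and 0 with the lower (9.13% and 9.79% of all tested genes), and 31 had a log2 fold change above 0 (52.6% of all tested genes), with a median of 0.23. With the length correction 8 had an unadjusted p below 0.05 as higher and 0 as lower, where 7.4% and 9.55% of all tested genes did. Their median deviation was 0.012, −0.42, 0.12 and −0.26 on the log2 scale across the saline group and 0.34, −0.017, 0.20 and −0.024 across the mAb-DXd/IMQ group. Saline tumors 2 and 4 were the lowest here too. Summed over the list, the levels were 3172, 2449, 3408 and 2698 CPM and 3859, 3158, 3573 and 3146 CPM in the same order, with Top2a the most abundant gene and no listed gene at 0. The part of proliferation in the repair gene values was not tested.

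By phase, the 15 mitosis genes had a median log2 fold change of 0.30 and the 18 S phase genes of 0.15. Bub1, a kinase of the spindle checkpoint, had 32.9, 23.3, 36.7 and 28.1 CPM across the saline group and 51.7, 42.998, 48.7 and 43.6 CPM across the mAb-DXd/IMQ group, without overlap (log2 fold change 0.63, SE 0.14, edgeR adjusted p 0.05798). Ccnb2, a mitotic cyclin, had 57.7, 40.7, 66.9997 and 50.4 CPM and 115, 78.4, 69.3 and 70.3 CPM in the same order, and Birc5, of the chromosomal passenger complex, 72.5, 41.8, 74.4 and 54.2 CPM and 97.4, 78.6, 88.7 and 94.1 CPM. They had log2 fold changes of 0.63 and 0.56, each with an edgeR adjusted p of 0.117 and no overlap. DESeq2 gave adjusted p values of 0.00553 for Bub1 and 0.0393 for Ccnb2, which both passed, and 0.0466 for Birc5, under the fold limit. Over the alternatives run the adjusted p reached 0.177 for Bub1, 0.276 for Ccnb2 and 0.285 for Birc5 at most. Mki67, the usual marker of dividing cells, had 259, 199, 292 and 242 CPM and 232, 279, 341 and 305 CPM in the same order, with overlap (log2 fold change 0.22, 95% interval −0.11 to 0.56, 0.13 to 0.31 without single tumors). Pcna, the replication clamp, had 186, 200.5, 235 and 192 CPM and 252, 183, 179 and 166 CPM, also overlapping (log2 fold change −0.062). The helicase subunit Mcm7, with 133, 117, 144 and 129.8 CPM and 155, 128, 133 and 105 CPM, overlapped too and was the other listed gene below 0 (log2 fold change −0.0094).

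Markers of cell types were read in the same tumors. All 7 epithelial markers were detected and had the higher mean in mAb-DXd/IMQ tumors (median log2 fold change 0.30), as had all 5 endothelial markers (median 0.26). With the length correction, 6 of the 7 epithelial markers (median 0.20) and all 5 endothelial markers (median 0.27) were above 0. In the fit without it, 0 markers of either list had an unadjusted p below 0.05, where 9.13% of all tested genes did as higher. The epithelial list had a summed level of 2566, 1961, 2596 and 2447 CPM across the saline group and 3728, 2928, 2138 and 2241 CPM across the mAb-DXd/IMQ group (Krt18 the most abundant over all 8 tumors, as for the genes named in the lists below, and none past the thresholds). Of 12 leukocyte markers, all had the lower mean in mAb-DXd/IMQ tumors. Among the 10 tested, 2 passed the thresholds as lower, where 0.519% of all tested genes did. These were Cd4 (log2 fold change −1.91) and Cd8a (−1.22), each with an edgeR adjusted p of 0.0201 and no overlap between the groups. With the tumor number as a block neither passed (adjusted p 0.0695 and 0.0815), and neither passed without saline tumor 3, saline tumor 4 or mAb-DXd/IMQ tumor 4. Over the alternatives run the adjusted p reached 0.0846 for Cd4 and 0.0847 for Cd8a. Summed over the leukocyte list the levels were 499, 953, 616 and 721 CPM and 452, 392, 538 and 367 CPM in the same order, with Csf1r the most abundant. In bulk tissue, fewer cells of a type and less RNA per cell cannot be told apart. The summed levels of the fibroblast list (Col1a1 the most abundant) were 2839, 3836, 6675 and 7123 CPM and 5544, 4277, 7614 and 2865 CPM, of the endothelial list (Pecam1) 78.3, 183, 129.95 and 139.9 CPM and 176, 156, 173 and 149 CPM, and of the skeletal muscle list (Acta1) 393, 37.9, 318 and 174 CPM and 301, 67.5, 153 and 220.2 CPM. Adipocyte markers summed to under 3 CPM in every tumor and were at 0 in saline tumor 2. Whether these shifts bear on the repair genes was not tested. Of the receptors that define a triple-negative tumor, Pgr was under 1 CPM in every tumor, while Esr1 had 19.1 ± 1.14 CPM for saline against 15.7 ± 1.597 CPM for mAb-DXd/IMQ and Erbb2 102 ± 19.7 CPM for saline against 101 ± 14.1 CPM for mAb-DXd/IMQ (mean ± SD, n = 4 each).

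With 4 tumors in each group, a change smaller than the 95% intervals above can neither be seen nor excluded, and the lean of the repair genes to positive values is a description of genes that share tumors. The groups differ in treatment, and with it in whatever the tumors had become by the time they were taken, so the direct action of the drug on a cell and a shift in which cells remained cannot be told apart. The strand setting of the counting was not given, which leaves uncertain the genes that share exons with another gene. mRNA levels do not measure repair activity.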

How the data were processed

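RNA was sequenced from 8 tumors, 4 per group, each from its own mouse. The authors deposited whole-number read counts per gene (54532 genes) with a gene length, and their processing notes name HISAT, HISAT2, TopHat2 and mm39. Gene coordinates in the table match GENCODE M21 on GRCm38 for 98.3% of shared genes, and 98.0% of lengths equal merged exons. The strand setting of the counting was not given in the sources used here.

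Counts were tested with edgeR 4.0.16 (R 4.3.3): filterByExpr with a minimum count of 10, TMM factors, and the quasi-likelihood F-test of mAb-DXd/IMQ against saline, with Benjamini-Hochberg adjustment over 18511 genes. Thresholds were 0.05 and 0.58 on the log2 scale. CPM used TMM-scaled library sizes, and log2 CPM a prior count of 2. The length correction was an offset per tumor from a natural spline with 5 degrees of freedom in log2 gene length. DESeq2 1.42.0 and limma 3.58.1 were alternatives, beside other scalings and filters, a replicate block, a further GC offset (longest transcript) and leaving out each tumor. Intervals are 95% and rest on the fitted spread. Scripts were tested on simulated data. Every pair of libraries in a group differed beyond sampling noise.

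The members and gene lists were chosen with earlier results of these data known. Values in every tumor are given for the 4 members with the smallest p in each direction and for 12 central genes. From the other repair and proliferation lists they are given for genes with the smallest p in each direction. Tdp1 and Mki67 are given too, though genes of their lists left without such values had smaller p. Top1 is given and is in neither list. The values of Bard1, Brip1, Rad50, Fancc and Xrcc3 were added after they were seen. Of the other repair symbols, H2ax and Claspn matched no gene, with H2afx present under its older name. Figures were drawn with matplotlib 3.10.9.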

Additional observations from a re-analysis of the deposited data

Results flagged for a closer look

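Among 82 groups of 4 tumors checked (each repair gene in each group, the length slope and the median deviation), 4 held a tumor whose gap to its nearest neighbor took up an unusual share of the group's range. Chance flags about 1 in 20 groups, which is 4.1 here. Nbn was low in saline tumor 2 at 15.98 CPM, where the other saline tumors lay between 18.4 and 18.8 (share of the range 0.853). Fancl was high in mAb-DXd/IMQ tumor 1 at 26.1 CPM against 18.4 to 19.7 (0.835). Xrcc1 was high in mAb-DXd/IMQ tumor 3 at 48.9 CPM against 41.5 to 42.8 (0.831). Mus81 was high in saline tumor 1 at 22.1 CPM against 18.7 to 19.2 (0.83). None of these genes passed the thresholds, and the causes were not tested.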

How the results depend on the processing

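Between 1 and 22 alternatives were read for a result, and 35 of the 39 repair genes kept the sign of their log2 fold change in all 21 that give a fold change. Their median ranged from 0.17 to 0.25. Tested genes past the thresholds numbered 197, and 358 with no filter, 787 in DESeq2, 14 with a replicate block, 122 with the length offset, 126 with length and GC, 14 and 15 with these and the block. Without single tumors they were 203 (saline 1), 111 (saline 2), 10 (saline 3), 11 (saline 4), 190 (mAb-DXd/IMQ 1), 76 (mAb-DXd/IMQ 2), 88 (mAb-DXd/IMQ 3) and 12 (mAb-DXd/IMQ 4). Repair genes past the thresholds as higher were 1 with no filter, where 0.531% of all tested genes passed, and 2 in DESeq2, where 2.37% did. At an unadjusted p below 0.05 as higher they were 13 with upper-quartile factors (11.8% of all tested genes), 11 with library size only (10.9%), with the length offset (7.4%) and with length and GC (7.33%), and 3 (without saline 4, 6.79%) to 11 (without saline 1, 8.89%), beside 7 (9.13%). Other repair genes past the thresholds were 1 with upper-quartile factors and 2 in DESeq2, and proliferation genes 1 with upper-quartile factors, with no filter and with at least 1 CPM in 4 tumors, and 2 in DESeq2.

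Spearman's correlation of log2 fold change with gene length over all tested genes was −0.24 with at least 1 CPM in 4 tumors, −0.034 with the length offset, and −0.25 to −0.16 without single tumors. Signs turned for small log2 fold changes, and the cause was not tested for these or for the counts above. Rad51d was at −0.014 in limma voom and −0.014 with the block, −0.036 with length, −0.038 with length and GC, −0.066 and −0.067 with these and the block, and −0.099 to 0.16 without single tumors. Mus81 was at 0.00381 with upper-quartile factors and −0.077 to 0.015 without single tumors. Mcm7 was at 0.035 with upper-quartile factors, 0.017 with library size only and −0.11 to 0.089 without single tumors. In the same way Atm ran from −0.078 to 0.12, Parp1 from −0.055 to 0.12 and Pcna from −0.21 to 0.015. Between groups, tumors of the same number had correlations of −0.17, −0.055, 0.079 and −0.067 (numbers 1 to 4), and number 3 alone was the best match of its own number.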
